A study of Mus musculus with 8 samples.

Results

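Duxf3 and Sfi1, a pair of genes chosen as multi-copy loci that carried clustered peaks of trimethylated histone H3 lysine 9 (H3K9me3), were examined in the peak lists of wild-type and Peg3 knockout mouse cells. Members were all listed peaks on chromosome 10 between 58200000 and 58260000 (mm10), which holds the Duxf3 repeat array, and all peaks touching the Sfi1 gene body (chromosome 11, 3131850 to 3203347) or 10 kb on either side. They numbered 27 of the 581 listed peaks, 20 at the Duxf3 array and 7 at Sfi1. Both loci were chosen by the number and clustering of their H3K9me3 peaks in these same lists. For that reason the peak counts, heights and folds below describe the loci and are given with no test.

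The study used chromatin immunoprecipitation with sequencing on mouse embryonic fibroblasts, the connective-tissue cells cultured from embryos, here of strain C57BL/6 at 14.5 days post coitum. Cells were either wild type or carried a knockout of Peg3, which is imprinted and encodes a DNA-binding zinc finger protein. The labels give neither the knockout allele nor the number of embryos. Each genotype had 1 library with an antibody against PEG3 and 1 with an antibody against H3K9me3, all set against the input DNA of that genotype, so no difference between genotypes can be held against replicate error. After removal of duplicates the ChIP libraries kept 16986250 to 27289192 tags and the inputs 24305045 and 26470256. At Peg3 itself the PEG3 antibody gave 13 listed peaks in wild type and 19 in the knockout, so these lists are no test of the knockout label.

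Duxf3 belongs to the Dux family of double homeobox genes. In the mouse, Dux genes lie in tandem repeats, encode transcription factors that switch on genes of the embryo at the two-cell stage, and are kept silent in somatic cells. Sfi1 encodes a centrin-binding protein of the centrosome. H3K9me3 is written by histone methyltransferases such as SETDB1 and the SUV39H enzymes, is bound by HP1 proteins, and is known for marking silent chromatin and repeated DNA.

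Duxf3 lies on the minus strand at 58229505 to 58233089. The stretch directly upstream of its start, chr10:58233090-58233339 in GRCm38.p6 (the mm10 coordinates), is shown because a wild-type H3K9me3 peak reached into it. It is the RefSeq sequence of the gene's own strand, and the capitals mark the 44 bases that lie under that peak.
Duxf3 upstream: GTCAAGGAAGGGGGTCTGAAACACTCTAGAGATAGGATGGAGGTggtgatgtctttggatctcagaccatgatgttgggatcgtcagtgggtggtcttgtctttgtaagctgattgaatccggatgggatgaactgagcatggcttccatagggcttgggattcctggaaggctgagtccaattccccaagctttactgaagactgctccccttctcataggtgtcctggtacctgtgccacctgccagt
Of these 250 bases, 51.2% were G or C, against a median of 52.4% over the 32851 upstream windows of the RefSeq table. The window held 2 CG dinucleotides, where the median window held 6 and 29.0% of windows held at most 2. CCAAT, searched on both strands, was found 1 time (33.8% of all windows hold it), and TATAAA was not found (12.4% of windows hold it). None of its words of 50 bases recurred in the upstream window of another gene of that table, on either strand. Tandem copies without an entry could not be found this way, and only 4 of 9 Dux family symbols had a RefSeq position. Sfi1 had no entry in the table.

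Wild-type cells had 13 H3K9me3 peaks at the Duxf3 array and knockout cells 6. These were 7.51% of the 173 wild-type peaks (95% Clopper-Pearson interval 4.06% to 12.5%) and 6.45% of the 93 knockout peaks (2.40% to 13.5%). The intervals treat peaks as independent, which neighbouring peaks need not be, so the shares were not compared by them. The wild-type peaks covered 2694 bp and the knockout peaks 1018 bp, where the whole H3K9me3 lists covered 36528 bp and 21245 bp. All 20 peaks of the array lay between 58221728 and 58239656, at least 20.3 kb inside the edges of the window, and the nearest listed peaks outside the window lay 20.9 Mb and 3.34 Mb away.

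**Figure D1:**
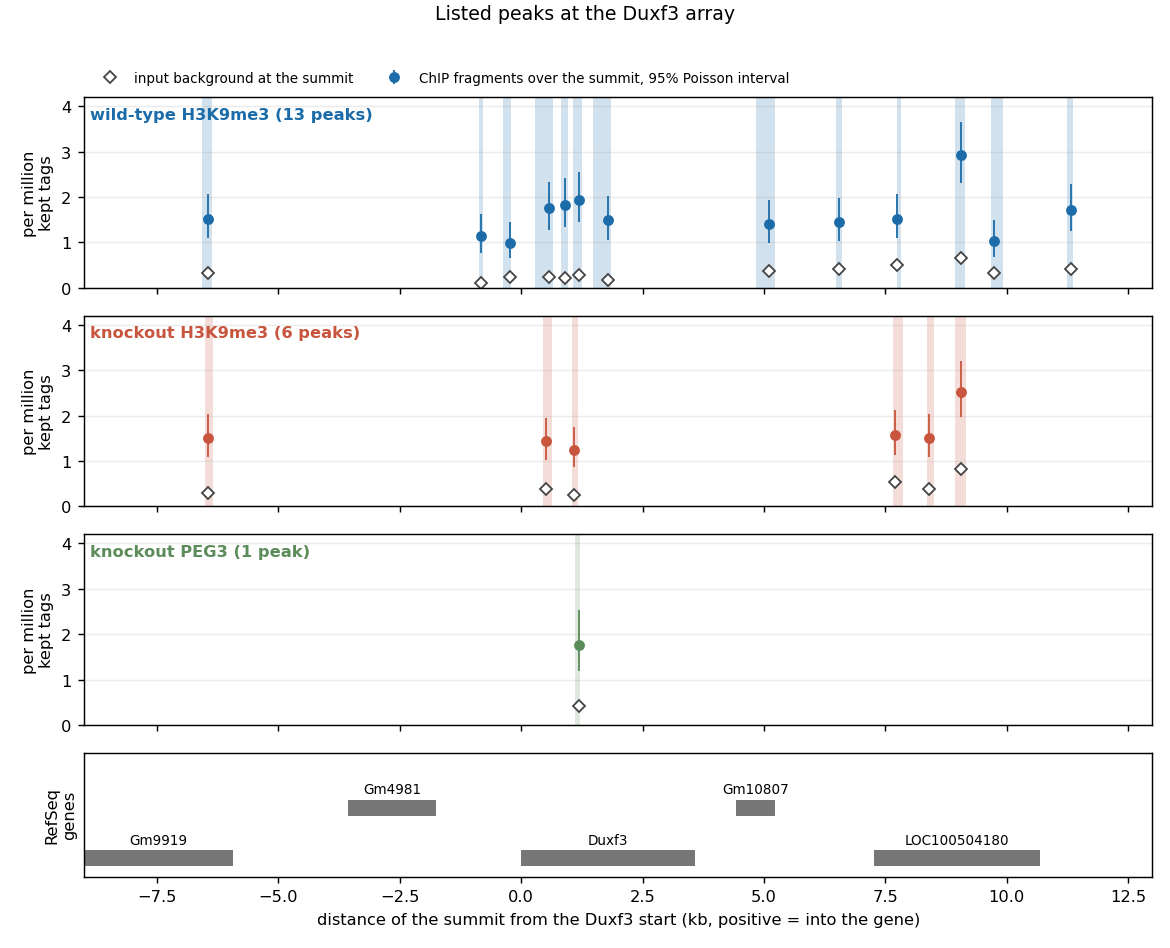
Height of the listed peaks at the Duxf3 array by library, in ChIP fragments over the summit per 1000000 kept tags, FPM (filled circles with 95% Poisson intervals) and input background at the same summit (open diamonds), against distance from the Duxf3 start in kb. Shaded bands are the peaks and grey bars the RefSeq genes. The 13 wild-type H3K9me3 peaks run from Gm9919, upstream of Duxf3, through LOC100504180, the 6 knockout peaks fall on a part of the same stretch, and the only PEG3 peak lies in Duxf3.

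The Duxf3 gene body held 4 of the wild-type peaks and 2 of the knockout peaks, from H3K9me3 lists of 173 and 93. They covered 29.3% and 8.34% of its length (1049 and 299 bp), beside 36528 and 21245 bp covered by the whole lists. Height is given as ChIP fragments over the summit per 1000000 kept tags (FPM), which puts libraries of different depth on a common scale. In wild type the 4 summits, at 577 to 1782 bp downstream of the gene start, reached 1.75 (95% Poisson interval 1.28 to 2.33), 1.83 (1.35 to 2.42), 1.94 (1.44 to 2.55) and 1.48 (1.05 to 2.03) FPM. They rest on 46, 48, 51 and 39 fragments, and their intervals overlap. The 2 knockout summits, at 514 and 1096 bp, reached 1.43 (1.02 to 1.95) and 1.25 (0.863 to 1.74) FPM, on 39 and 34 fragments. Both lay below each of the 4 wild-type heights, with overlapping intervals. Upstream of the gene start, wild type alone had a pair of lower peaks. The nearer, whose 44 bases are capitalised above, spanned 207 to 373 bp upstream and reached 0.989 FPM (0.646 to 1.45). The other, with its summit 835 bp upstream, reached 1.14 FPM (0.770 to 1.63).

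LOC100504180, a RefSeq protein-coding model at 58222403 to 58225832, held 3 H3K9me3 peaks in each genotype, covering 16.1% of it in wild type and 16.3% in knockout. The highest peak of the array lay here in both genotypes. It reached 2.93 FPM (2.31 to 3.66, 77 fragments) in wild type and 2.53 (1.97 to 3.20, 69 fragments) in knockout, with summits 2 bp apart. The other wild-type peaks in the model reached 1.03 and 1.52 FPM (27 and 40 fragments) and the other knockout peaks had 41 and 43 fragments (up to 1.58 FPM). Even the highest summit held 39.7% of the 194 fragments that can cover a base when 1 tag is kept per position and strand, and the other peaks of the array held fewer.

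The remaining peaks of the array lay in or between other gene models. Gm10807, a pseudogene, carried a wild-type peak of 394 bp (1.41 FPM) and 0 knockout peaks. Gm9919, an RNA gene, carried 1 peak in each genotype, of 40 fragments in wild type and 41 in knockout. Outside annotated genes were 4 wild-type peaks, the 2 upstream of Duxf3 and those at 58221728 and 58226491 (1.71 and 1.45 FPM), and 0 knockout peaks. Gm4981, a protein-coding gene between Duxf3 and Gm9919, held no listed peak, nor did Gcc2 at the edge of the window.

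Sfi1 carried 3 H3K9me3 peaks in wild type and 4 in knockout, or 1.73% (0.359% to 4.98%) and 4.30% (1.18% to 10.6%) of the lists. All lay inside the gene body and none in the flanks. In wild type the peaks at 3193056 to 3194057, 3195820 to 3196125 and 3199509 to 3199656 reached 3.16 (2.51 to 3.91), 2.51 (1.94 to 3.19) and 2.55 (1.97 to 3.24) FPM, on 83, 66 and 67 fragments. In knockout the peaks at 3193055 to 3193396, 3193554 to 3193674 and 3199865 to 3199996 reached 2.93 (2.32 to 3.65), 3.19 (2.55 to 3.93) and 2.60 (2.03 to 3.28) FPM, on 80, 87 and 71 fragments. These 6 peaks lay within 6.94 kb near the end of the gene with the larger coordinate, and their heights did not separate the genotypes. The remaining knockout peak, at 3171399 to 3171534, was lower, with 1.43 FPM (1.02 to 1.95, 39 fragments). Fau-ps2, a pseudogene of the ribosomal protein gene Fau, lies between the wild-type peaks and overlapped none. The other annotated genes of the window, Pisd-ps1, Gm33862, Gm11400, Gm51877 and Eif4enif1, which encodes a transporter of the translation factor eIF4E, overlapped no listed peak.

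**Figure D2:**
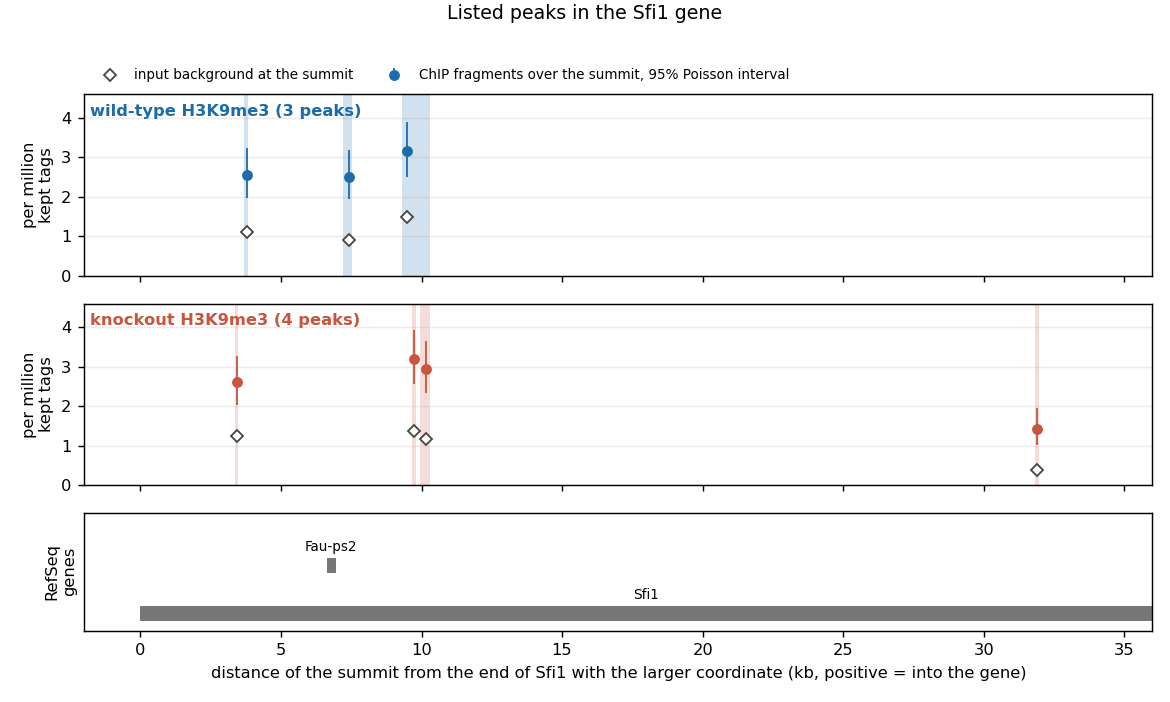
Height of the listed H3K9me3 peaks in Sfi1, in ChIP fragments over the summit per 1000000 kept tags, FPM (filled circles with 95% Poisson intervals) and input background (open diamonds), against distance in kb from the gene end with the larger coordinate. The 3 wild-type peaks and 3 of the 4 knockout peaks lie with summits within 10.2 kb of that end, at 2.51 to 3.19 FPM, and the input at these 6 summits lies at 0.914 to 1.48 FPM.

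The input background was higher under 6 of the 7 Sfi1 peaks than under any peak of the Duxf3 array. The exception was the knockout peak at 3171399, whose input lay at rank 56 of 93 in its list and within the range of the array. It was recovered from the fold enrichment, which the peak caller computes as pileup over local input background with 1 added to each, and is given relative to the mean of the whole input genome. The caller takes the highest of several local windows, so these are upper readings. At Sfi1 the wild-type input stood at 28.6, 17.6 and 21.4 times the genome mean under the 3 peaks. In knockout it stood at 22.3, 26.3 and 23.8 times under the neighbouring 3 peaks and at 7.21 times under the peak at 3171399. At the Duxf3 array the wild-type input ranged from 2.23 to 12.7 times the genome mean (median 6.35, 13 peaks) and the knockout input from 4.59 to 15.9 times (median 7.21, 6 peaks). All other H3K9me3 peaks had medians of 3.17 (157 wild-type peaks) and 7.93 (83 knockout peaks). An input of at least 5 times the mean was found under 8 of 13 wild-type and 5 of 6 knockout peaks of the array and under all 7 peaks of Sfi1, where the whole lists had 42.8% in wild type and 78.5% in knockout. How reads that align to several copies were placed is not given in the sources used here, so signal from different copies cannot be told apart.

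The folds of Sfi1 were among the lowest of each list, apart from 1 knockout peak. The 3 wild-type folds of 2.10, 2.67 and 2.25 stood at ranks 172, 169 and 171 of 173 from the highest, while the heights stood at ranks 35, 47 and 46 and the input at ranks 4, 19 and 11. In knockout the 3 neighbouring peaks had folds of 2.46, 2.28 and 2.05, ranks 89, 91 and 92 of 93, and the peak at 3171399 had a fold of 3.53. Within the Duxf3 array the wild-type folds differed by gene. The 4 wild-type peaks in the Duxf3 gene body had folds of 6.02 to 7.27 over an input of 3.46 to 5.55 times the genome mean. The 3 in LOC100504180 had folds of 2.88 to 4.25 over an input of 6.35 to 12.7 times. The highest fold of the array, 7.53, belonged to the peak 835 bp upstream of Duxf3, where the input was lowest, and not to the highest peak. Because the input was recovered from the fold, a low input goes with a high fold at a given height by arithmetic. In knockout the 2 folds in Duxf3 were 4.61 and 3.53 and the 3 in LOC100504180 ran from 2.85 to 3.71, so the ranges overlapped.

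**Figure D3:**
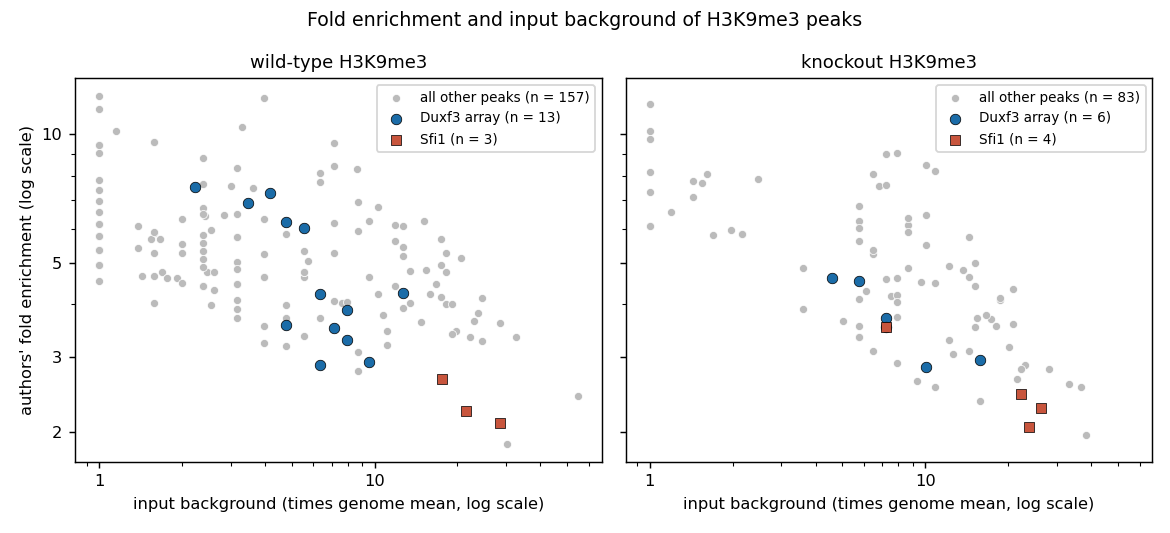
The authors' fold enrichment against the input background in multiples of the genome mean (both axes on log scales) for every listed H3K9me3 peak, wild type on the left and knockout on the right. The Sfi1 peaks (squares) sit at the low-fold, high-input corner, at 2.10 to 2.67 in wild type, except the knockout peak with a fold of 3.53, and the Duxf3 array peaks (filled circles) spread from folds of 2.88 to 7.53 in wild type and 2.85 to 4.61 in knockout. The axes are tied by construction, since the input was recovered from the fold.

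Overlap between the genotypes was counted from 1 shared bp. At the Duxf3 array 5 of the 13 wild-type peaks (38.5%) overlapped a knockout peak, beside 38.2% of the whole wild-type list. In the other direction 5 of 6 knockout peaks (83.3%) overlapped a wild-type peak, beside 72.0% of the whole knockout list. Both shares were thus near those of all listed H3K9me3 peaks. The 8 peaks of wild type alone lay 90 to 2440 bp from a knockout peak, and the peak of knockout alone lay 416 bp from a wild-type one. At Sfi1, 1 of 3 wild-type peaks and 2 of 4 knockout peaks overlapped, since the long wild-type peak met 2 knockout peaks. The peaks at 3199509 in wild type and 3199865 in knockout lay 209 bp apart without overlapping.

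At the overlapping peaks of the array the knockout over wild-type ratio of heights was 0.642 (95% exact conditional interval 0.404 to 1.01) and 0.817 (0.519 to 1.28) in Duxf3, 0.863 (0.615 to 1.21) and 1.04 (0.658 to 1.63) in LOC100504180, and 0.988 (0.623 to 1.57) in Gm9919. All 5 intervals include 1. Over all 66 shared H3K9me3 peaks 10.6% had an interval wholly below 1 and 6.06% wholly above it. The median ratio of the 5 array pairs was 0.863, with 4 below 1 and 1 above. The 60 shared pairs outside both loci had a median of 0.900, with 43 below 1 and 17 above, so lower knockout heights were common across the lists. With the fragments of all 5 pairs added up, the ratio over the array was 0.857 (0.713 to 1.03, 254 and 226 fragments). Split by gene, it was 0.725 (0.528 to 0.993, 97 and 73 fragments) in Duxf3 and 0.922 (0.705 to 1.21, 117 and 112 fragments) in LOC100504180, a grouping chosen after the values were seen. The interval of Duxf3 ends close to 1, and the summits compared in Duxf3 lay 90 and 63 bp apart. For the 2 Sfi1 pairs, which share their wild-type peak, the ratios were 0.929 (0.675 to 1.28) and 1.01 (0.739 to 1.38).

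Input under the same pairs moved in both directions. Scaled to kept input tags, it was 1.26 times as high in knockout as in wild type (0.633 to 2.57, 22 and 16 tags) at the highest peak of LOC100504180 and 1.53 times (0.504 to 5.12, 10 and 6 tags) at the Duxf3 pair nearer the gene start. It was 0.918 times as high in Gm9919 (0.300 to 2.81) and 0.791 times in Sfi1 (0.473 to 1.31). Input was higher in knockout at 3 of the 5 array pairs and at 0 of the 2 Sfi1 pairs, where 47.0% of all shared peaks had a higher knockout input. At the nearer Duxf3 pair the fold went from 6.22 in wild type to 3.53 in knockout, a ratio of 0.568, beside a height ratio of 0.817. At the other Duxf3 pair, where the input ratio was 0.836, the fold went from 6.02 to 4.61, a ratio of 0.766, beside a height ratio of 0.642. The part of the input in the lower knockout folds was not tested.

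**Figure D4:**
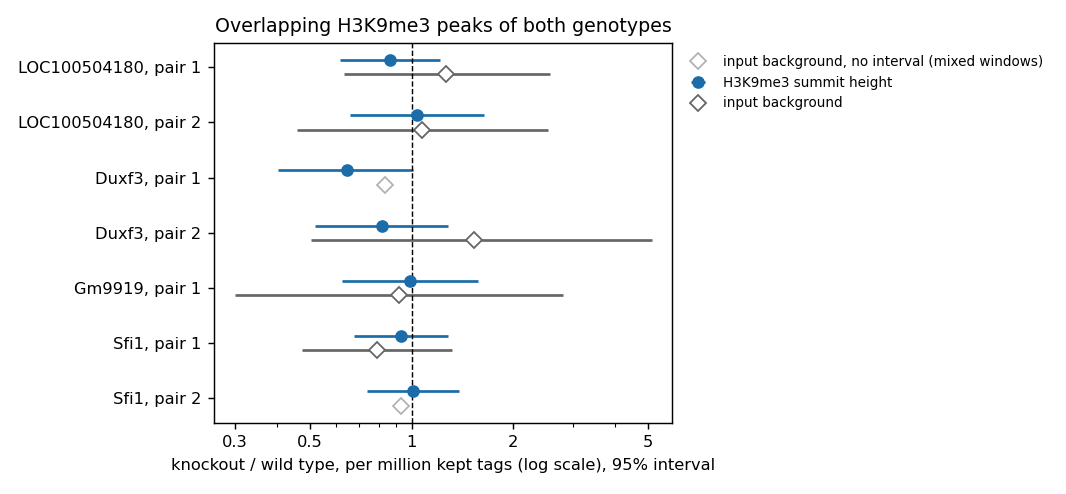
Knockout over wild-type ratio, on a log scale, for the 7 overlapping H3K9me3 pairs, for summit height (filled circles) and input background (open diamonds), both scaled to kept tags, with 95% exact conditional intervals. Paler diamonds have no interval because the background came from windows of different width. Every interval of a height or an input shown includes 1, and the lowest height ratio, 0.642, is at a Duxf3 pair.

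A peak missing from a list is not a height of 0. The smallest height that would have been listed was worked out from the lowest −log10 p of each list, with the input under the peak carried over after scaling to kept tags. Of the 8 array peaks of wild type alone, 7 were above the height needed in the knockout list. The peak of 48 fragments in Duxf3 had 1.83 FPM, against 0.843 needed. The peak at 58223166 was the exception, with 1.03 FPM against 1.06 needed. At Sfi1 both wild-type peaks without a knockout partner were above the height needed, by less: 2.51 against 2.05 and 2.55 against 2.35 FPM. In the other direction, the array peak of knockout alone had 41 fragments, against 29 needed in the wild-type library, which kept slightly fewer tags. Both Sfi1 peaks of knockout alone were also above the height needed in wild type, with 39 fragments against 29 and 71 against 64 (2.60 against 2.43 FPM). Heights in a peak's own library that would have sufficed for the other list were thus found in both directions. The libraries had similar depth, so such a result was largely fixed in advance. It does not give the height at the site in the library without the peak. The heights needed assume the same input in both genotypes at the site, which could not be read from the lists. Listed peaks were also selected for their height.

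The PEG3 antibody gave 1 peak at these loci, in Duxf3 in knockout cells. It lay at 58231874 to 58231987, with its summit 1196 bp downstream of the gene start, and had 30 fragments, 1.77 FPM (1.19 to 2.52), a fold of 3.85 and an input of 7.85 times the genome mean. By height it stood at rank 95 of the 163 knockout PEG3 peaks. All 114 bp lay within a wild-type H3K9me3 peak whose summit was 10 bp away. With a knockout H3K9me3 peak, whose summit was 100 bp away, 67 bp were shared. The PEG3 height was 1.42 times the knockout H3K9me3 height (0.838 to 2.39), an interval that includes 1. It overlapped no wild-type PEG3 peak, where 39.9% of all knockout PEG3 peaks did, and its input was among the 52.1% of at least 5 times the genome mean. The wild-type PEG3 list had 0 peaks at both loci, as did the knockout PEG3 list at Sfi1.

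Overlap of the antibodies was therefore limited to this site. Of the 16 wild-type H3K9me3 peaks of both loci 0 overlapped a wild-type PEG3 peak, beside 13.3% of all wild-type H3K9me3 peaks. Of the 10 knockout ones 1 did, beside 20.4% of all knockout H3K9me3 peaks and 12.9% of all knockout PEG3 peaks in the other direction. With the input of the knockout carried over, the knockout PEG3 height of 1.77 FPM would have passed in the wild-type PEG3 library, where about 1.26 FPM (27 fragments) was needed. The wild-type PEG3 height at that site is not given by the lists. For a site with the input of Sfi1 the height needed was 46 to 65 fragments in wild-type PEG3 (2.15 to 3.04 FPM) and 23 to 51 fragments in knockout PEG3, so a PEG3 signal below those heights could not be listed there.

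Set beside other peak clusters, the Duxf3 array was among the largest and Sfi1 among those with most input. A high rank by peak number follows from the choice of the loci for clustered H3K9me3 peaks. Peaks of both genotypes were counted, so a site listed in both counts for each. With peaks merged within 10 kb, the array shared rank 2 of all H3K9me3 regions with 19 peaks. A region at the start of chromosome 10 (3109562 to 3117141) had 23, the region at Tmem267, a membrane protein gene on chromosome 13, also had 19, and a region on chromosome 17 (29102865 to 29108521) had 14. The array was the longest of these 4, at 17.9 kb against 5.66 to 7.71 kb. Its median input of 6.35 times the genome mean lay between the 2.86 of the chromosome 17 region and the 12.3 and 12.7 of the others, and its highest peak, 2.93 FPM, between 1.52 and 5.40 or 6.96. The 2 regions with high input also had 7 and 3 PEG3 peaks over both genotypes, the array 1 and the chromosome 17 region 0. The merged Sfi1 region of 6 peaks shared rank 9 of 96 regions by peaks and stood at rank 3 by median input, 23.1 times the genome mean, and had 0 PEG3 peaks.

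Lists of genes related to Duxf3 and Sfi1 were read against the share of all RefSeq genes with a peak nearby. Of 9 Dux family symbols 4 had a position in the RefSeq table (Duxf3 and Duxbl1, Duxbl2 and Duxbl3), and within 10 kb of them only Duxf3 had peaks, from 3 of the 4 libraries. Of all RefSeq genes, 0.222% had a wild-type and 0.138% a knockout H3K9me3 peak within 10 kb, and 0.428% and 0.252% a PEG3 peak. None of 25 genes active at the two-cell stage, Zscan4c and Zfp352 among them, and none of 23 regulators of Dux or H3K9me3, such as Trim28, Setdb1 and Smchd1, had a peak within 10 kb in any library. The same held for 15 centrins and centriole genes, such as Cetn2 and Plk4. At the shares of all genes, lists of this size would hold about 0 such genes, so these counts show nothing about the lists. Among 20 other genes with repeated sequence, wild-type H3K9me3 peaks lay within 10 kb of Mid1, a ubiquitin ligase gene, and Erdr1, and knockout H3K9me3 peaks near none.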

How the data were processed

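The 4 peak tables were analysed, each from 1 ChIP library. Both antibodies of a genotype had their input from a single raw file, per the labels. Bowtie2, SAMtools and MACS2 with build mm10 are named in the submitters' processing notes. Per the file headers, the peak caller was MACS2 2.2.6 with q set to 0.05 against the input of the genotype, 1 tag was kept per position, and the larger data set was scaled to the smaller. The deposited columns are the pileup signal at the summit, the fold (pileup plus 1, divided by local input background plus 1), and −log10 p-value and −log10 q-value, whose header names were lost and which were identified from their values.

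Fragments over the summit were recovered as pileup divided by the ChIP scale, the kept tags of the smaller data set over those of the ChIP (largest distance to a whole number 0.00537 over all peaks). Input background was recovered from the fold. The −log10 p recomputed from both with a Poisson distribution differed by at most 0.00335. At 21 of the 27 peaks the input was a whole number of tags (tolerance 0.02) in a window of 1 fragment length, at the other 6 in a window of 1 kb (tolerance 0.05). The genome mean is kept tags times fragment length (97 to 104 bp) over the effective genome size of 1870000000 in the headers. With 1 library per group no test was made, and 95% intervals cover counting error only. Gene positions came from the RefSeq table of GRCm38.p6. Named items were both loci, every gene in the windows, the 3 other regions with most H3K9me3 peaks and list genes with a peak within 10 kb. The members and gene lists were chosen with earlier results of these data known. Alternatives were other q, fold, window, scaling, overlap and distance settings. Functions were tested on simulated data. Scripts ran in Python 3.11.15 with SciPy 1.17.1, pandas 2.3.3 and NumPy 2.4.6, and plots were drawn with matplotlib 3.10.9.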

Additional observations from a re-analysis of the deposited data

How the results depend on the processing

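Of 88 values recomputed under alternatives, 76 stayed within 1.5 times the count or within the 95% interval of the ratio. Part of these could hardly move: a count of 0 stays 0 under a stricter setting, and rescaling changes a ratio little. With peaks of a library within 1000 bp merged, the Duxf3 array held 7 wild-type and 3 knockout H3K9me3 peaks. The whole lists, before merging, held 173 and 93. With a fold of at least 3, Sfi1 held 0 wild-type and 1 knockout H3K9me3 peak. With the highest fold of the array in place of the greatest height, the knockout over wild-type ratio was 0.612 in place of 0.863. The 0.612 compares peaks at different sites, while the 0.863 compares an overlapping pair, whose fold ratio was 0.696. Counted within 1000 bp, 11 in place of 6 wild-type H3K9me3 peaks of both loci had a knockout partner, and 2 in place of 1 knockout H3K9me3 peaks a PEG3 partner. With peaks merged within 1 kb the array took rank 5 and Sfi1 rank 14 among H3K9me3 regions, in place of 2 and 9. Within 50 kb, 1 regulator of Dux or H3K9me3 (Cbx5) and 1 centriole gene (Cntrob) had a peak, both in wild-type PEG3, and in the gene body alone 1 of the other repeated genes (Mid1) had one. Merging, a minimum fold or another distance changes which peaks count, by construction. No paired analysis was possible because each group holds 1 library. Depth limits the heights to 26 to 87 fragments per summit and the input to as few as 6 tags.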
